A study of Mus musculus with 8 samples.

Results

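Glycogen is the branched glucose store of animal cells, and in the brain it is held mainly in astrocytes. Its turnover was followed here through 6 genes: Ppp1r3c (also called PTG), which brings protein phosphatase 1 to the glycogen particle and so favours synthesis; Gys1, the glycogen synthase of muscle and brain; Gbe1, the branching enzyme; Pygb and Pygm, the brain and muscle isoforms of glycogen phosphorylase, which releases glucose 1-phosphate; and Epm2a, which encodes laforin, a phosphatase of glycogen that is lost in Lafora disease. Loss of laforin leads to poorly branched glycogen deposits in neurons, and in mice removal of Ppp1r3c lowers that burden. The genes were picked by name, and each was represented by every probe set whose annotation gave that symbol alone. Where a gene had more than 1 probe set, the brightest on average over the 8 arrays was taken as its value, and any other is given beside it. All 6 genes were measured, out of 18193 named genes, with 9 of the 45037 probe sets tested.

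Hippocampal RNA of female mice was hybridised to 8 one-colour Affymetrix mouse genome arrays. MT is the transgenic line Tg6799, which carries mutant human amyloid precursor protein and presenilin transgenes under Thy1 promoter sequence, active in neurons, and LM is the littermate control of the same colony. MT4m, LM4m, MT8m and LM8m are the 2 genotypes at 4 and 8 months of age, an early and a late symptomatic age, with 2 arrays each. No source used here states whether the 2 arrays of a group are separate animals or pools, and the p-values therefore rest on a spread between arrays that may be technical. All values are on the log2 scale, and SDs of group means are over n = 2. A probe set passed at a limma p-value under 0.05 after Benjamini-Hochberg adjustment over all 45037 probe sets, and all p-values are two-sided.

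The library labelled MT8m replicate 1 stood apart. Its Thy1 value was 9.90, against 11.73 to 11.82 on the other MT arrays and 9.53 to 9.96 on the LM arrays, and its Cst7 and Gfap values, 1.75 and 7.17, also lay with those of the littermates. Its mean over 8 choroid plexus markers, 3.92, instead lay with the other MT arrays (3.67 to 4.00) and not with the LM arrays (5.67 to 6.88). The member differences that rest most on this array are therefore given with and without it. A fit without it leaves MT8m with 1 array, which is then assumed to vary like the other groups. Y-linked genes lay between 1.30 and 1.99 on all 8 arrays, and the methods of the study give the mice as female. Array medians lay between 2.44 and 2.51. Brightness depends on the probes, so levels of different probe sets were not set against each other. A probe set is called dim here where its mean lay under 2.475, the median of all probe set means.

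The promoters of 2 members are shown first, chosen after their values were seen because the results turn on them, Ppp1r3c by age and Pygm by genotype. They are the 250 bases before the RefSeq gene start in GRCm38.p6, written 5′ to 3′ on the gene's strand, at chr19:36736605-36736854 on the minus strand for Ppp1r3c and at chr19:6384158-6384407 on the plus strand for Pygm. Capitals mark CACGTG, the E-box read by basic helix-loop-helix factors, and ACGTG and GCGTG, the core letters of the element read by hypoxia-inducible factor, on either strand, so that CACGT and CACGC are the same cores read from the other strand.
Ppp1r3c: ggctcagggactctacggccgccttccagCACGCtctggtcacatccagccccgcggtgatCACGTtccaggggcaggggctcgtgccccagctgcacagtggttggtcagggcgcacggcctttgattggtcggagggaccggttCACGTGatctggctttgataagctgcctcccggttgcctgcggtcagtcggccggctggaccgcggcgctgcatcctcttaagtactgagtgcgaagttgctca
Pygm: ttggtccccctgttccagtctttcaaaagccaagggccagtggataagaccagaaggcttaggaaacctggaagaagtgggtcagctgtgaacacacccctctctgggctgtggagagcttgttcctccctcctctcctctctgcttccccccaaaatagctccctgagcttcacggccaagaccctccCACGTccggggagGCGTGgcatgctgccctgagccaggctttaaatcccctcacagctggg
In the Ppp1r3c window, 1 CACGTG lay 99 to 104 bases before the start, which is also ACGTG on both strands. A further ACGTG lay 185 to 189 bases and a GCGTG 217 to 221 bases before the start. The Pygm window held 1 ACGTG, 57 to 61 bases before the start, and 1 GCGTG, 44 to 48 bases before it. The windows of Pygb and Epm2a also held 1 ACGTG and 1 GCGTG each, and those of Gys1 and Gbe1 held none of these letters. Of 32851 mouse windows of 250 bases, 6.02% held CACGTG, 16.6% ACGTG, 28.2% GCGTG and 38.6% either of the last pair, and 4 of the 6 members held one of that pair. Counting both strands of the CACGTG, the Ppp1r3c window held ACGTG at 3 positions, and 1.22% of all windows held it at 3 or more. The cut at 3 is the count of this window, so that share is a description with no test. A match describes the sequence and is not evidence of a bound factor.

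Ppp1r3c gave lower values at 8 months than at 4 months in both genotypes, and by genotype its averaged difference was 0.001 ± 0.11 (SE, 95% interval -0.25 to 0.26). Its brighter probe set, 1433691_at, read 8.24 and 8.07 in MT4m, 8.18 and 8.18 in LM4m, 7.49 and 7.88 in MT8m, and 7.58 and 7.74 in LM8m. The 4 arrays of 8 months, between 7.49 and 7.88, lay below all 4 arrays of 4 months, between 8.07 and 8.24. Probe sets whose arrays separated fully by age, in either direction, made up 3.72% of all tested, and Ppp1r3c was the 1 member of 6 among them. The lowest of the 8 values came from the library labelled MT8m replicate 1 and the next lowest from LM8m replicate 1.

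**Figure D1:**
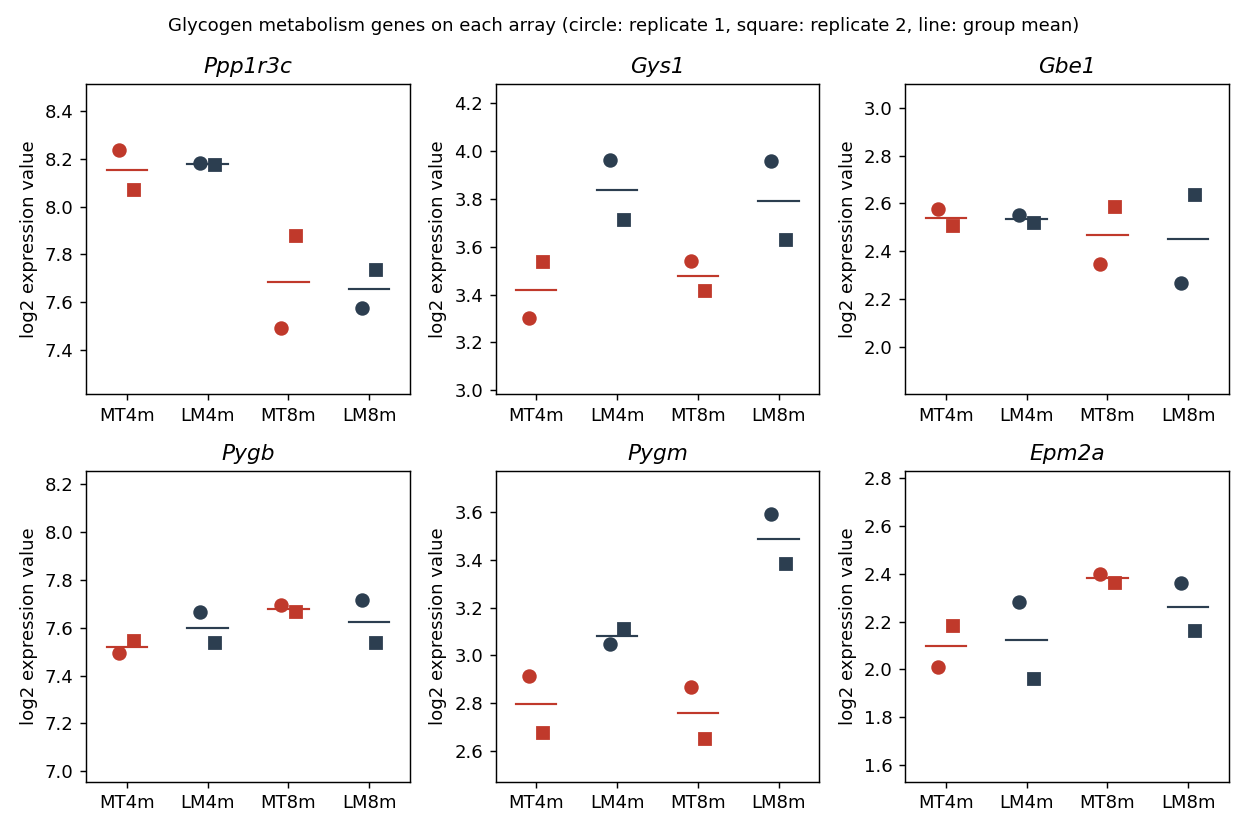
The log2 expression value of the 6 members on each array, with MT in red and LM in dark blue, circles for replicate 1, squares for replicate 2 and lines for group means; each panel spans the same number of log2 units at its own offset. The Ppp1r3c points of 8 months all lie at or below 7.88 and those of 4 months at or above 8.07, while Gys1 and Pygm are lower on every MT array than on any LM array.

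The mean Ppp1r3c value was 7.68 ± 0.27 in MT8m against 8.15 ± 0.12 in MT4m, a log2 difference of -0.47 ± 0.16 (SE), which is 1.39-fold lower at 8 months. In the littermates it was 7.66 ± 0.11 in LM8m against 8.179 ± 0.005 in LM4m, a difference of -0.52 ± 0.16, or 1.44-fold. Averaged over genotypes the difference was -0.50 ± 0.11 (95% confidence interval -0.75 to -0.24), and it did not pass the threshold (limma adjusted p = 0.544). No probe set passed in this contrast (0%), while 2920, or 6.48%, had an unadjusted limma p under 0.05, and Ppp1r3c was the 1 member of 6 among those. In MT alone (limma adjusted p = 0.869) 0% of probe sets passed and 5.7% were under 0.05 unadjusted, again with Ppp1r3c as the 1 member. In LM alone (limma adjusted p = 1) 0% passed and 3.45% were under 0.05 unadjusted, with 2 members, Ppp1r3c and Pygm. Without the library labelled MT8m replicate 1, the MT difference was -0.28 (limma adjusted p = 0.781) and the averaged difference -0.40 (adjusted p = 0.432).

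By genotype, Ppp1r3c differed by -0.03 ± 0.16 at 4 months (MT minus LM, 95% interval -0.39 to 0.34) and by 0.03 ± 0.16 at 8 months (-0.33 to 0.39). The 2 genotypes overlapped at both ages. The value at 8 months depended on which MT8m array was kept, with 0.22 (limma adjusted p = 0.898) without the library labelled MT8m replicate 1 and -0.17 (limma adjusted p = 0.986) without MT8m replicate 2. The interaction, the genotype difference at 8 months minus that at 4 months, was 0.05 ± 0.22 (95% interval -0.46 to 0.56, limma adjusted p = 1), so a different age change in MT and LM was not shown. It was 0.25 without the library labelled MT8m replicate 1 and -0.14 without MT8m replicate 2.

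The second Ppp1r3c probe set, 1425631_at, did not follow the first. It read 3.52 and 3.02 in MT4m, 2.31 and 2.64 in LM4m, 2.54 and 2.71 in MT8m, and 2.11 and 3.04 in LM8m. The ages overlapped, and the averaged age difference was -0.27 ± 0.21 (limma adjusted p = 0.881), with -0.64 in MT and 0.10 in LM. At 4 months its genotype difference was 0.79 ± 0.29 (limma adjusted p = 0.944), against -0.03 for the brighter probe set. The age difference of Ppp1r3c therefore rests on 1 of its 2 probe sets.

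The astrocyte markers, among them Aqp4, Gja1 and Slc1a2, were measured beside Ppp1r3c because astrocytes hold most brain glycogen. All 10 lay above the median probe set, and their mean log2 value was 8.47 to 9.16 on the arrays of 8 months and 8.62 to 8.71 on those of 4 months, so the ranges overlapped. Both ends of the range at 8 months were MT8m arrays, 8.47 on the library labelled MT8m replicate 1 and 9.16 on replicate 2. Over the 10 markers the median averaged age difference was 0.09, beside -0.004 over all genes, with 8 of 10 above 0 and none past the test. Without the library labelled MT8m replicate 1, that difference was 0.40 for Aqp4, 0.29 for Slc1a2 and -0.09 for Gja1. With it the values were -0.001, 0.14 and -0.20, so the astrocyte marker levels depended on this array. Gja1 was the only astrocyte marker below 0 without this array. The averaged age difference was then 0.47 for Slc1a3, 0.39 for S100b, 0.36 for Sox9 and 0.19 for Glul. For Aldoc, Aldh1l1 and Fgfr3 it was 0.18, 0.16 and 0.15. In whole tissue, fewer cells of a type and less RNA per cell cannot be told apart.

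Of the enzymes that build glycogen, Gys1 gave lower values in MT than in LM at both ages, and Gbe1 did not separate the groups. Gys1 (1416737_at) read 3.30 and 3.54 in MT4m against 3.96 and 3.71 in LM4m, and 3.54 and 3.42 in MT8m against 3.96 and 3.63 in LM8m. The 4 MT arrays, at most 3.54, lay below the 4 LM arrays, at least 3.63. The averaged genotype difference was -0.37 ± 0.12 (MT minus LM, 95% interval -0.63 to -0.10, 1.29-fold lower), and it did not pass (limma adjusted p = 0.81). Without the library labelled MT8m replicate 1 it was -0.40, and without LM8m replicate 1, the array with the second highest Gys1 value, it was -0.28. The other Gys1 probe set, 1450196_s_at, is dim, ranged from 1.57 to 1.89 over the 8 arrays and differed by 0.04, so it did not show the difference. Between 8 and 4 months Gys1 differed by 0.006 ± 0.12.

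Gbe1 (1420654_a_at) sits close to the median probe set, with 2.58 and 2.51 in MT4m, 2.55 and 2.52 in LM4m, 2.35 and 2.59 in MT8m, and 2.27 and 2.63 in LM8m. Its arrays of 8 months spread over the whole range of those of 4 months. The averaged genotype difference was 0.01 ± 0.11 (-0.24 to 0.26) and the averaged age difference -0.08 ± 0.11 (-0.33 to 0.18).

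Of the 2 phosphorylases, Pygm, the isoform best known from skeletal muscle and also present in astrocytes, was lower on every MT array than on any LM array. Its probe set, 1448602_at, read 2.91 and 2.68 in MT4m against 3.05 and 3.11 in LM4m, and 2.87 and 2.65 in MT8m against 3.59 and 3.38 in LM8m. The LM8m arrays were the highest and no MT array exceeded 2.91. Probe sets whose 4 MT and 4 LM arrays did not overlap made up 3.26% of all tested, and Pygm and Gys1 were the 2 members of 6 among them.

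The mean Pygm value at 8 months was 2.76 ± 0.15 in MT8m against 3.49 ± 0.15 in LM8m, a difference of -0.73 ± 0.15 (SE, 95% interval -1.06 to -0.39, 1.66-fold lower, limma adjusted p = 0.647). At 4 months the difference was -0.29 ± 0.15 (limma adjusted p = 0.944). Averaged over ages it was -0.51 ± 0.10 (95% interval -0.74 to -0.27, 1.42-fold lower), and it too missed the threshold (limma adjusted p = 0.402). Without the library labelled MT8m replicate 1, the averaged difference was -0.56 (adjusted p = 0.17) and that at 8 months -0.84 (adjusted p = 0.232). The age difference was 0.41 ± 0.15 in LM (limma adjusted p = 1) and -0.03 ± 0.15 in MT. The interaction that sets these against each other was -0.44 ± 0.21 (95% interval -0.92 to 0.03, limma adjusted p = 1), so the 2 age differences were not shown to differ.

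**Figure D2:**
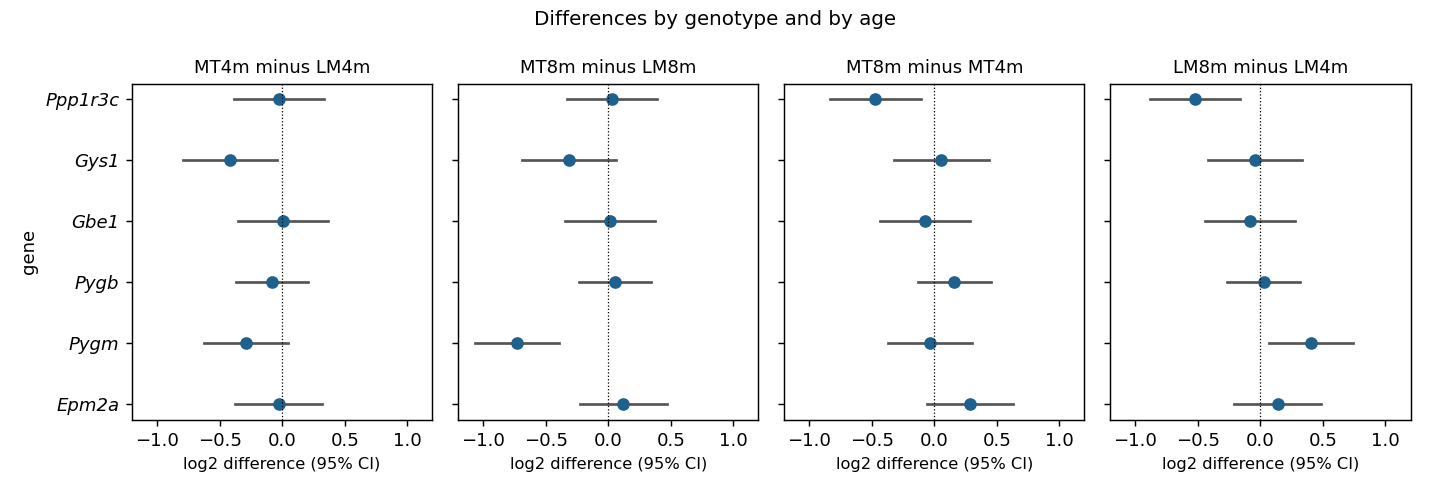
The log2 difference of each member (points) with its 95% confidence interval (lines) from the limma fit, by genotype at 4 and 8 months and by age in MT and LM. The intervals of Ppp1r3c lie below 0 in both age contrasts, those of Pygm below 0 in MT8m minus LM8m and above 0 in LM8m minus LM4m, and that of Gys1 below 0 in MT4m minus LM4m; no member passed after adjustment.

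Marker genes of tissues next to the hippocampus also had lower values on MT arrays. The mean log2 value of 8 choroid plexus markers, among them Ttr, Kcnj13 and Folr1, was 3.67 to 4.00 on the MT arrays and 5.67 to 6.88 on the LM arrays. That of 8 meningeal markers was 3.97 to 4.38 on MT arrays and 4.33 to 5.70 on LM arrays, with an overlap. Skeletal muscle markers, measured because of Pygm, lay at 2.12 to 2.39 on MT arrays and 2.12 to 2.36 on LM arrays, and 5 of the 6 were dim, among them Ckm, Myh4 and Mylpf. Between groups, the choroid plexus markers also varied with age in the direction of Pygm. Their median age difference was -0.13 in MT and 0.58 in LM, where 8 of 8 were above 0, and the median interaction was -0.75 with 8 of 8 below 0. Of the 8 markers 0 passed in these 3 limma contrasts, with 0 in MT, 3 in LM and 3 in the interaction under 0.05 unadjusted. By genotype averaged over ages, 7 of the 8 choroid plexus markers passed, all lower in MT, where 0.06% of all probe sets passed. At 8 months 2 of the 8 passed and at 4 months 0 did. Within LM8m, Pygm read 3.59 and 3.38 where the choroid plexus mean was 5.91 and 6.88, the opposite order. In LM4m, MT4m and MT8m the array with the higher Pygm value also had the higher mean. For Gys1 the order was opposite in LM4m, LM8m and MT4m and the same in MT8m. The part of adjoining tissue in the lower Pygm and Gys1 values of MT, and in the higher Pygm values of LM8m, was not tested. The difference between 3′ and 5′ Gapdh probe sets, a sign of RNA integrity, was 2.19 on LM4m replicate 1, which had the highest Gys1 value. It was 1.42 on LM8m replicate 1, which had the second highest Gys1 and the highest Pygm value. On the remaining arrays it was 0.66 to 1.17. Without LM4m replicate 1 the averaged genotype difference was -0.30 for Gys1 and -0.52 for Pygm. Without LM8m replicate 1 it was -0.28 for Gys1. For Pygm the averaged genotype difference ranged from -0.565 to -0.448 with single arrays left out. Its age difference in LM was 0.30 without LM8m replicate 1. The part of RNA integrity in these values was not tested.

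Pygb, the phosphorylase of brain, had the narrowest range of the 6 genes over the arrays. Its probe set, 1433504_at, read 7.50 and 7.54 in MT4m, 7.67 and 7.54 in LM4m, 7.70 and 7.66 in MT8m, and 7.72 and 7.54 in LM8m. All 8 values lay within 0.22 log2 units, and the groups overlapped. The averaged genotype difference was -0.01 ± 0.09 (-0.22 to 0.19) and the averaged age difference 0.09 ± 0.09 (-0.11 to 0.30).

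Epm2a was dim on both of its probe sets. The brighter, 1439677_at, read 2.01 and 2.18 in MT4m, 2.28 and 1.96 in LM4m, 2.40 and 2.36 in MT8m, and 2.36 and 2.16 in LM8m. Its averaged age difference was 0.21 ± 0.11 (-0.03 to 0.46, limma adjusted p = 0.792), and that of the other probe set, 1421553_at, was -0.05. By genotype they differed by 0.05 ± 0.11 and -0.07 ± 0.10. Differences between values this low may be compressed, which was not measured, and a change in Epm2a was not detectable on these arrays.

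Over the 6 members, the averaged genotype contrast held 0 that passed limma's adjusted threshold, which 27 of 45037 probe sets (0.06%) did, and 2 with an unadjusted p under 0.05, where 5.76% of all probe sets were. At 4 months 0% of all probe sets passed and 4.86% were under 0.05 unadjusted, with 1 member, Gys1. At 8 months 0.02% passed and 3.39% were under 0.05 unadjusted, with 1 member, Pygm. For the interaction 0% passed and 2.58% were under 0.05 unadjusted, with 0 members. In the moderated F test over the 4 groups 0.0133% passed and 4.89% were under 0.05 unadjusted, and the 2 members there were Pygm (limma adjusted p = 0.676) and Ppp1r3c (limma adjusted p = 0.892). Counts of 0 to 2 among 6 genes are too small to be read as above these background shares.

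The wider pathway was read through other genes of glycogen metabolism in 4 groups, of which 0 passed in any limma contrast. The genes named from them had unadjusted p-values under 0.05. Protein phosphatase 1 is directed to glycogen by a family of subunits of which Ppp1r3c is one, and 9 other genes of that family and its catalytic subunits were measured. Among them Ppp1r3d, a further glycogen-targeting subunit, also gave lower values at 8 months than at 4 months in both genotypes. It read 3.29 and 3.12 in MT4m, 3.77 and 3.53 in LM4m, 2.65 and 2.52 in MT8m, and 2.91 and 3.18 in LM8m. The averaged age difference was -0.61 ± 0.11 (limma adjusted p = 0.393). Its averaged genotype difference was -0.45 ± 0.11 (limma adjusted p = 0.595). Ppp1r3e had an interaction of 0.50 ± 0.19 (limma adjusted p = 1). Over the 9 genes the median age difference was -0.04, beside -0.004 over all genes, with 2 genes above 0 and 7 below.

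For breakdown, 7 genes were measured. Phka2, a regulatory subunit of phosphorylase kinase, read 4.36 and 4.31 in MT4m, 4.61 and 4.33 in LM4m, 4.91 and 4.98 in MT8m, and 4.55 and 4.63 in LM8m. The MT8m arrays were the highest, and the averaged age difference was 0.37 ± 0.10 (limma adjusted p = 0.603). Gaa, the lysosomal enzyme that degrades glycogen, differed by 0.39 ± 0.12 with age (limma adjusted p = 0.659), and Phkb, another subunit of phosphorylase kinase, by -0.29 ± 0.11 (limma adjusted p = 0.7). These 3 genes of breakdown therefore did not share a direction. The median age difference of the 7 was 0.14, with 4 above 0 and 3 below.

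For synthesis and priming, 8 of 8 genes were measured, including Gyg, the self-glucosylating primer. Hk2, a hexokinase, read 3.70 and 3.92 in MT4m against 3.72 and 3.08 in LM4m, and 3.47 and 4.19 in MT8m against 3.16 and 3.11 in LM8m. The genotypes overlapped, and the averaged difference was 0.55 ± 0.19 (limma adjusted p = 0.836), or 0.73 ± 0.17 (limma adjusted p = 0.257) without the library labelled MT8m replicate 1. The median age difference of the 8 genes was -0.11, with 3 above 0 and 5 below, beside -0.004 over all genes.

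Among 10 other regulators, Stbd1, which tethers glycogen to membranes, differed by genotype by -0.27 ± 0.09 (limma adjusted p = 0.836) and is dim. Prkag2, a subunit of AMP-activated kinase that binds nucleotides, differed by 0.35 ± 0.14 (limma adjusted p = 0.853). Prkab2, the glycogen-binding subunit of the same kinase, differed with age by -0.36 ± 0.14 (limma adjusted p = 0.736). The median age difference of the 10 was -0.06.

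**Figure D3:**
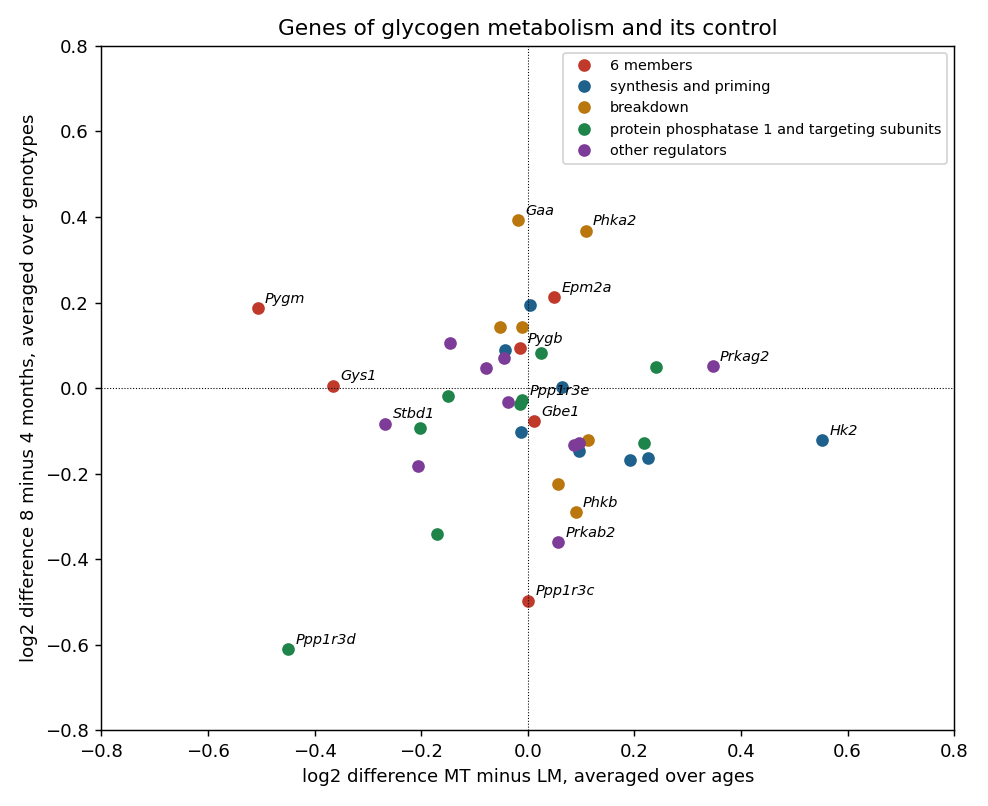
Each point is 1 gene of glycogen metabolism, with the averaged log2 genotype difference (MT minus LM) on the horizontal axis and the averaged log2 age difference (8 minus 4 months) on the vertical axis, coloured by gene group. Ppp1r3c lies on the vertical axis near -0.50, Ppp1r3d lies below and to its left, Pygm and Gys1 lie to the left near the horizontal axis, and Hk2 lies farthest to the right.

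Ppp1r3c is known to be induced by low oxygen in human cell lines, so 14 hypoxia-inducible genes were read beside it. Their mean log2 value was 6.06 to 6.13 on the arrays of 8 months and 6.03 to 6.18 on those of 4 months, which overlapped. The median averaged age difference was -0.03, with 6 genes above 0 and 8 below, against -0.50 for Ppp1r3c. P4ha1, a collagen prolyl hydroxylase subunit, had the smallest p by age, with -0.36 ± 0.10 (limma adjusted p = 0.629). The interaction was above 0 for 12 of the 14, with a median of 0.16 beside 0.03 over all genes, and the smallest p was that of Ddit4 at 0.56 ± 0.18 (limma adjusted p = 1).

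The genes whose values over the 8 arrays were most like those of Ppp1r3c were found by centring each gene on its own mean and taking the root mean square difference from Ppp1r3c over the 8 arrays, among 18192 other genes. This is a description with no test, and all genes share the same 8 arrays. The closest was Slc5a3, which encodes a sodium-coupled myo-inositol transporter, at 0.05 log2 units, against a median of 0.31 over all genes. It read 7.81 and 7.56 in MT4m, 7.69 and 7.63 in LM4m, 6.96 and 7.45 in MT8m, and 7.17 and 7.30 in LM8m. The next were Ppwd1, a peptidyl-prolyl isomerase, at 0.05, Smc2, a subunit of condensin, at 0.08, Sema3c, a secreted semaphorin, at 0.08, and Pphln1 at 0.09. All 5 had lower means at 8 months than at 4 months, which follows from choosing them by closeness to Ppp1r3c. Of the other members Gbe1 came nearest, at 0.22 (rank 1271), and Pygm lay farthest, at 0.48 (rank 17338), so no other member was among the genes closest to Ppp1r3c. A gene with no change over the arrays would lie at 0.27, the root mean square of Ppp1r3c around its own mean.

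Arrdc3 and Sfpq, which the study followed together with Ppp1r3c, were set beside it. By RT-PCR of hippocampus, the study reported that Ppp1r3c rose with age in LM and fell in MT. It also reported that Arrdc3 rose with age in both genotypes and that Sfpq fell with age in MT. Between genotypes it reported more Arrdc3 in MT at 4 months and a tendency of Ppp1r3c to be higher there. Ppp1r3c and Sfpq were reported lower in MT than in LM at the late stage. The Sfpq primers printed in the study are almost the same letters as its Ppp1r3c primers, which limits the Sfpq comparison. On the arrays, Ppp1r3c and Arrdc3 were lower at 8 months in both genotypes, and Sfpq was higher at 8 months in MT. By genotype, Ppp1r3c differed by -0.03 at 4 months and 0.03 at 8 months (MT minus LM). Its second probe set differed by 0.79 and 0.05. Mean Arrdc3 was 6.415 in MT4m against 6.413 in LM4m, and mean Sfpq was 8.26 in MT8m against 8.12 in LM8m. Arrdc3, an arrestin domain protein that acts in receptor trafficking, read 6.54 and 6.29 in MT4m, 6.31 and 6.51 in LM4m, 5.54 and 6.10 in MT8m, and 5.81 and 6.04 in LM8m. As with Ppp1r3c, the arrays of 8 months lay below those of 4 months, and the library labelled MT8m replicate 1 was the lowest. Its averaged age difference was -0.54 ± 0.14 (limma adjusted p = 0.606) and its averaged genotype difference -0.05 ± 0.14. Without that library they were -0.40 ± 0.12 (limma adjusted p = 0.528) and 0.09 ± 0.12. Sfpq, a splicing factor of paraspeckles, read 7.92 and 7.96 in MT4m, 8.00 and 7.76 in LM4m, 8.28 and 8.25 in MT8m, and 8.40 and 7.85 in LM8m. Its age difference was above 0, at 0.28 ± 0.13 (limma adjusted p = 0.779), with overlap between the ages.

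**Figure D4:**
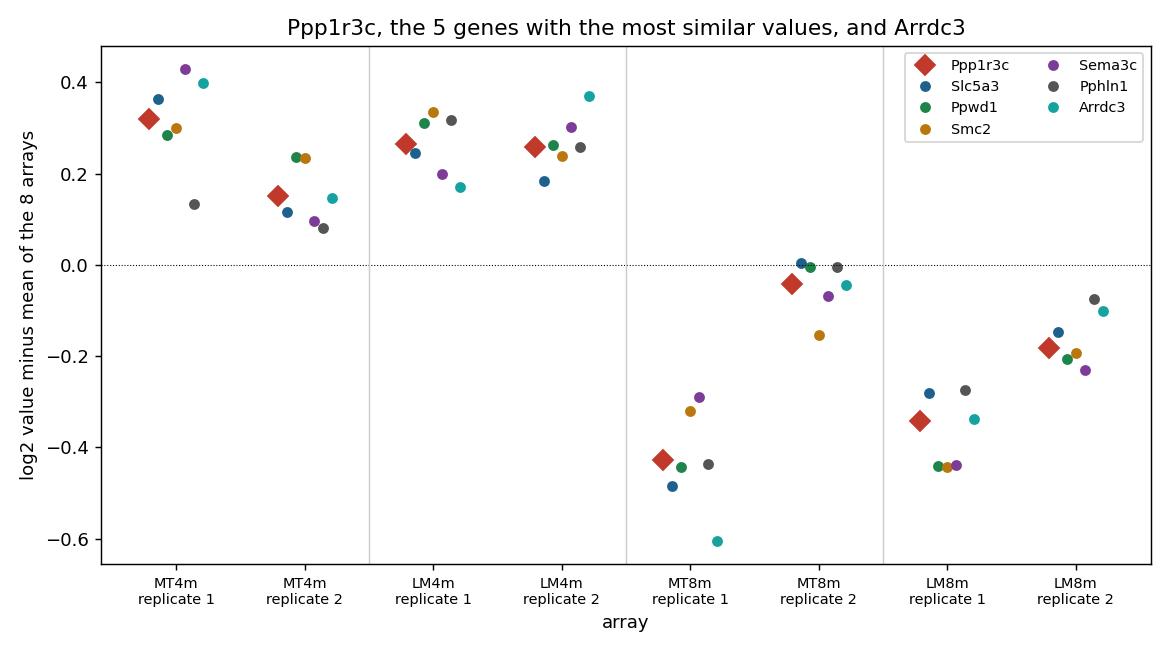
The log2 value of Ppp1r3c (diamonds), of the 5 genes with the most similar values and of Arrdc3 (circles) on each array, each minus its own mean over the 8 arrays. All 7 genes lie above 0 on the 4 arrays of 4 months and at or below about 0 on the 4 arrays of 8 months, with MT8m replicate 2 the nearest to 0 for Ppp1r3c.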

How the data were processed

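The 8 arrays were normalized by the authors with RMA in affy, and they deposited log2 expression values for 45101 probe sets, 64 of them controls. The affy version is not given in the sources used here. The values ran from 0.979 to 12.9 with a median of 2.475 over probe set means, low for this method, and the zero point of the scale is unknown. Correlations between arrays were 0.985 to 0.993. Depth does not apply to arrays, and their number limits the precision. Of the 45037 probe sets tested, 34945 had 1 gene symbol, 932 several and 9160 none, and 34741 were matched by Entrez identifier to a RefSeq table (GRCm38.p6), which also gave the promoter windows for 6 of 6 members. Columns of no sample numbered 0.

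Under R 4.3.3, lmFit and eBayes of limma 3.58.1 estimated the means of the 4 groups from all 8 arrays, with 4 residual degrees of freedom, because the methods of the study tested the 4 classes together. Contrasts were genotype (MT minus LM), age (8 minus 4 months) and their interaction, with a moderated F test over the groups. Genes were named by rule: the 6 members, Arrdc3, Sfpq, Thy1, Cst7 and Gfap; up to 4 genes of each list by unadjusted p under 0.05; and the 5 genes most like Ppp1r3c. The members, lists and tests were chosen with earlier results of these data known. Alternatives were leaving out dim probe sets, a cyclic loess step, eBayes with trend and robust settings, testing 1 probe set per gene, using the second probe set of a gene, fits of the compared groups alone, an additive model, the title number as a replicate block, each array left out, and 2 doubted arrays left out. The fit was tested on simulated data.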

Additional observations from a re-analysis of the deposited data

How the results depend on the processing

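In every alternative run 0 of the 6 members passed the adjusted limma threshold. The averaged age difference of Ppp1r3c kept its sign in 17 of 17 alternatives, from -0.59 without MT8m replicate 2 to -0.27 with its second probe set (adjusted p between 0.219 and 1), and with arrays left out it ranged from -0.59 to -0.40. In MT alone it was -0.66 without MT8m replicate 2 and -0.28 without MT8m replicate 1. The averaged genotype difference of Pygm ranged from -0.58 to -0.45 over 14 of 14 alternatives of the same sign (adjusted p between 0.17 and 1). That of Gys1 ranged from -0.45 to -0.28 with arrays left out and was 0.04 with its second probe set. Sign changes among values that passed in no setting were not counted as reversals. Leaving out dim probe sets, the trend and robust settings, 1 probe set per gene, the additive model and the replicate blocks leave an averaged estimate unchanged. Their signs were fixed by the design, so only the remaining alternatives could have changed a sign in these counts. Over all probe sets, the number passing moved from 27 to between 5 (without MT4m replicate 1) and 142 (without MT8m replicate 1) for the averaged genotype contrast. It was 0 to 24 at 4 months, 0 to 95 at 8 months, 0 to 2 by age in MT, 0 to 3 by age in LM and averaged, 0 to 1 for the interaction and 0 to 58 for the F test.

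The number in the sample titles is shared between ages within a genotype. The deviations of same-numbered arrays correlated at 0.24 in LM and -0.17 in MT. With 2 arrays a group, this cannot show whether same-numbered arrays share more than the number. With the title number as a replicate block 0 probe sets passed in the averaged age contrast. The Ppp1r3c difference of -0.50 cannot change under this block, and its SE was 0.12 (limma adjusted p = 0.491). With the mutant numbers crossed, a pairing chosen after seeing the data, 3 passed in that contrast, 2 by age in MT and 3 by age in LM. The cause of these differences between settings was not tested. Dim probe sets, such as those of Epm2a, limit what can be detected.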

Other observations

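Other cell classes gave values not described with the members. The mean log2 value of 8 microglial markers, among them Tyrobp, Ctss and Cst7, was 7.69 and 7.15 in MT4m against 5.56 and 5.31 in LM4m, and 5.52 and 8.62 in MT8m against 5.37 and 5.60 in LM8m. Of the MT arrays, that labelled MT8m replicate 1 lay with the littermates. The mean of 9 neuronal markers lay between 8.42 and 8.70 on MT arrays and between 8.53 and 8.65 on LM arrays, so these marker levels overlapped between genotypes.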
